A study of Mus musculus with 5 samples.

Results

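GABAergic amacrine cells were sought among the cells that were sorted as Müller glia (MG), the radial glia of the retina. A barcode (the droplet tag that stands for a cell) counted as a GABAergic amacrine cell when it met 4 conditions. It had at least 1000 unique molecular identifiers (UMIs, counted RNA molecules), of which at most 15% came from mitochondrial genes. The 5 MG genes Glul, Rlbp1, Slc1a3, Clu and Aqp4 gave under 0.5% of its UMIs. Gad1 and Gad2 together gave at least 3 UMIs and more than Slc6a9, the glycine transporter gene. Tfap2a, Tfap2b and Pax6 together gave at least 1 UMI. The cells were thus chosen by measured UMIs of these genes, and their levels are given below as a description. Of 15293 barcodes, 10751 met the depth and mitochondrial limits and 102 met the whole rule.

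All mice were Glast-CreERT2; Rosa26-Ai65 on C57BL/6J, aged 12 to 20 weeks, with both sexes pooled, and all received tamoxifen. Their eyes received the ShH10 adeno-associated virus (AAV) with a Gfap promoter, which is active in glia, and FlpO together with either mKate2, a red fluorescent control protein, or Yap5SA, an active form of the Hippo pathway effector YAP. Ai65 makes tdTomato where both Cre and Flp have acted, and tdTomato+ cells were sorted at 56 days. The control cells came from 16 pooled retinas and the Yap5SA cells from 21, and the sources do not say how retinas or animals were divided among libraries. There were 2 mKate2 AAV and 3 Yap5SA AAV libraries, of 12319028 to 50938304 UMIs. Yap5SA AAV replicates 1 and 2 shared 1361 barcodes (99.8% of the smaller), so replicate 2 was left out and 4 captures remained. Other pairs of libraries shared 7 barcodes at most.

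Amacrine cells are interneurons of the inner retina that shape the signal between bipolar cells and ganglion cells, and most use either GABA or glycine. GABAergic amacrine cells make GABA with the enzymes encoded by Gad1 and Gad2, load it into vesicles with the carrier encoded by Slc32a1, and take it up again with plasma membrane transporters. They include many subtypes, among them wide-field cells, starburst cells, which also release acetylcholine, and cells that make a neuropeptide.

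The promoters of the GABA genes are shown first, because the product genes define or mark these cells and because Tfap2a and Tfap2b, used to choose them, encode AP-2 transcription factors. Gad1, Gad2, Slc32a1 and Slc6a11 each had a RefSeq promoter entry on GRCm38.p6, with 250 bases before and 50 after the gene start. Capitals mark matches to GCCNNNGGC, the palindromic core to which AP-2 proteins bind, which reads the same on both strands. It was present in 5450 of 32851 mouse promoters of this length (16.6%). Gad2 held 2 matches, Slc6a11 held 1, and Gad1 and Slc32a1 held 0. All 4 lie on the + strand, at chr2:70561879-70562178 for Gad1, chr2:22622077-22622376 for Gad2, chr2:158610508-158610807 for Slc32a1 and chr6:114130991-114131290 for Slc6a11.
Gad1: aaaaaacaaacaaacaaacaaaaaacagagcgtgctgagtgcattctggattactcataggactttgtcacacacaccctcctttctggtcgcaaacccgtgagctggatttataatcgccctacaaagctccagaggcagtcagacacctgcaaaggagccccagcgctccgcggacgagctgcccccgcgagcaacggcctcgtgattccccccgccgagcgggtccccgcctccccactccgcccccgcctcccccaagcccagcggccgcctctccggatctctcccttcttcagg
Gad2: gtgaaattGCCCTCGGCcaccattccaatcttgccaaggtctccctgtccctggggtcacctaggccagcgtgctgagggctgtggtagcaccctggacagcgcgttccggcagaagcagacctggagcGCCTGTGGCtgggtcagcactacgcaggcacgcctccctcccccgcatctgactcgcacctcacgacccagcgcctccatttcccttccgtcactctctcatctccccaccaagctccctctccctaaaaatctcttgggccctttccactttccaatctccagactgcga
Slc32a1: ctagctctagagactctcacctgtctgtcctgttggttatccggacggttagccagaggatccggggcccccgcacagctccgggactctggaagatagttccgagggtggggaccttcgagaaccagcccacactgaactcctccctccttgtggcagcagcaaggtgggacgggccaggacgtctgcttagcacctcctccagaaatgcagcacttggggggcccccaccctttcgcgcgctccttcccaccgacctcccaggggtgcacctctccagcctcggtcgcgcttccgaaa
Slc6a11: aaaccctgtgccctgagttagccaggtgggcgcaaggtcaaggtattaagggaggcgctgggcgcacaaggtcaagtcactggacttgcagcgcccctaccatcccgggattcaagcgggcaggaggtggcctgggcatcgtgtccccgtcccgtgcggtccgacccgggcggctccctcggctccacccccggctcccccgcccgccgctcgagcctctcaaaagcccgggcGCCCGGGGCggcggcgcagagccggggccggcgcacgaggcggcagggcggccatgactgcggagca

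The cells came from 2 of the 4 captures. In mKate2 AAV replicate 2, 89 of 5637 passing barcodes were GABAergic amacrine cells (1.58%, exact 95% binomial interval 1.27 to 1.94), and in Yap5SA AAV replicate 3, 13 of 2310 were (0.563%, 0.300 to 0.960). The count was 0 of 1677 in mKate2 AAV replicate 1, where a share up to 0.179% cannot be told from 0, and 0 of 1127 in Yap5SA AAV replicate 1, where that limit is 0.266%. Averaged over captures, the share was 0.789% ± 1.12 (SD, n = 2) after mKate2 AAV, compared with 0.281% ± 0.398 (SD, n = 2) after Yap5SA AAV, a difference of -0.508 percentage points (two-sided exact permutation test, p = 1, and 0.333 is the smallest p this design allows). Replicates of the same group differed by more than the groups did, and without mKate2 AAV replicate 2 the difference was 0.281. The intervals cover counting error only. Both libraries that held the cells also held glycinergic amacrine cells (76 and 23) and bipolar cells (466 and 78), and their file headers name a later Cell Ranger version (9.0.1) than the other captures (8.0.0), without a tdTomato entry among the 33696 features. The reporter could therefore not be counted in these cells, and sort, library and processing version cannot be told apart. From here on, "the mKate2 AAV library" and "the Yap5SA AAV library" are these 2 libraries.

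**Figure D1:**
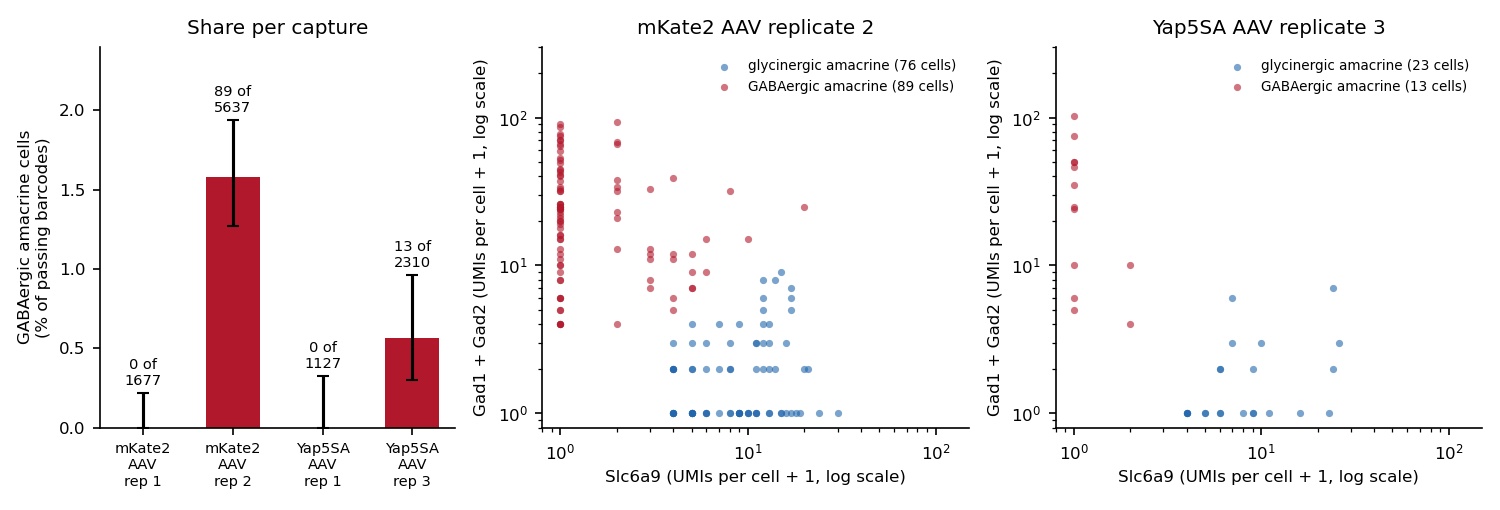
Bars give the share of passing barcodes in each capture with exact 95% binomial intervals, and each point is a GABAergic or glycinergic amacrine cell of the 2 libraries that held them, placed by its UMIs of Slc6a9 (x axis) and of Gad1 and Gad2 (y axis), each plus 1 on a log scale. The 89 and 13 cells lie at 3 or more Gad UMIs on the side where Gad1 and Gad2 exceed Slc6a9, and the other captures are at 0.

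Among amacrine cells of either kind, the GABAergic share was 53.9% in the mKate2 AAV library (89 of 165, 46.0 to 61.7) and 36.1% in the Yap5SA AAV library (13 of 36, 20.8 to 53.8). These counting intervals overlap, and there was 1 library on each side. The GABAergic cells held a median of 26903 UMIs (1952 to 98688) and 6127 genes in the mKate2 AAV library and 28312 UMIs (8292 to 63924) and 5187 genes in the Yap5SA AAV library. Glycinergic amacrine cells (medians of 24563.5 and 17110 UMIs) and bipolar cells (20563 and 19050) were deep too, while MG of the same libraries had medians of 2943 and 3100 UMIs. The need for 3 Gad UMIs favours deep barcodes.

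Few cells stood at the edges of the rule. In the mKate2 AAV library 5 cells had exactly 3 Gad UMIs and 6 cells with 2 lay outside, 16 more with at least 3 lay outside because Slc6a9 was as high or higher (median 4.5 Gad and 11 Slc6a9 UMIs), and 2 lacked any UMI of Tfap2a, Tfap2b and Pax6. In the Yap5SA AAV library 1 cell had 3 Gad UMIs, 3 cells with 2 lay outside, and 2 lay outside by Slc6a9. The GABAergic and glycinergic classes thus adjoin each other, and glycinergic cells carried a Gad UMI in 38 of 76 and 9 of 23 cells, with 3 or more in 17.1% and 8.70% of cells. In types that should lack the genes, a Gad UMI was present in 0.918% and 0.560% of MG, in 0.858% and 3.85% of bipolar cells and in 0 of 95 and 0 of 286 rods.

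RNA of other cell types was measured by marker lists. The rule itself held the 5 MG genes under 0.5%, and 10 or more UMIs of a wider list of 9 MG genes were present in 63 of 89 and 8 of 13 cells. Median shares of UMIs from 10 rod genes were 0.00214% and 0.00321%. Of the 89 cells, 3 held 10 or more UMIs of 5 microglia genes (up to 182) and 4 held 10 or more of 7 bipolar genes. Of the 13 cells, 0 and 1 did. Summed levels in the mKate2 AAV and Yap5SA AAV libraries, in CPM (UMIs scaled to a fixed sum per class and library), were 264 and 44.3 for 9 microglia genes, 872 and 612 for 9 MG genes, 60.8 and 74.8 for the rod genes, 6.44 and 8.31 for 6 cone genes, 68.0 and 44.3 for the bipolar genes, 89.7 and 122 for 8 ganglion cell genes and 77.3 and 213 for 5 horizontal cell genes. Of the 8 ganglion cell genes, Slc17a6, Pou4f2 and Pou4f3 were at 0 in both libraries, and most UMIs came from the neurofilament genes Nefl (34.6 and 58.2 CPM) and Nefm (51.9 and 58.2 CPM), with 10 or more UMIs of the list in 7 of 89 and 2 of 13 cells. Both neurofilament genes were higher than in bipolar cells, and Nefm was lower than in glycinergic cells (-2.28 ± 0.37, adjusted p = 0.00899). The part of such RNA in the results was not tested. No barcode of a GABAergic cell recurred in another library.

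Lhx1, a horizontal cell gene, was confined to 1 cell of the Yap5SA AAV library, which held all 5 horizontal cell genes of the list (55 UMIs). It was the fourth deepest of the 13 (38699 UMIs) and held 7 UMIs of Lhx1, 7 of Onecut1, 15 of Septin4 and 22 of Calb1, beside 44 of Gad1, 1 of Gad2, 51 of Tfap2b and 27 of Pax6. In that library the cell with the next most UMIs of the list had 10, from Septin4 and Calb1, and 10 or more were present in 3 of the 89 cells. Horizontal cells are inhibitory interneurons of the outer retina that can carry Gad and AP-2 genes too. Lhx1, which sets horizontal cells apart from amacrine cells, was at 0 in all 89 cells of the mKate2 AAV library and in the other 12.

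The genes the rule used were high by construction and are given as a description. Gad1 (GRCm39 chr2:70383416-70432372, + strand) stood at 591 CPM in the mKate2 AAV library and 770 CPM in the Yap5SA AAV library, and Gad2 (chr2:22511862-22583886, + strand) at 350 and 421 CPM. Per cell, Gad1 ranged from 0 to 74 UMIs (median 11) and from 3 to 63 (median 17), and Gad2 from 0 to 37 (median 8) and from 0 to 69 (median 6). Both enzymes were detected together in 67 of 89 cells and 9 of 13. Gad1 was missing in 17 of the 89 and 0 of the 13, and Gad2 was missing in 5 and 4, so that a Gad2-free cell was 30.8% of the smaller library and 5.62% of the larger. At least 2 UMIs of Slc6a9 were present in 20 of the 89 and 0 of the 13, among them most cells without Gad1. Slc6a5, another glycine transporter gene, reached 2 UMIs in 20 and 1 cells. Tfap2b reached 1000.5 and 1039 CPM, Pax6 631 and 618 CPM, and Tfap2a 121 and 111 CPM.

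The comparison with glycinergic amacrine cells asked how the 2 amacrine classes of the same sort differed. Summed UMIs of each class in each library were fitted with edgeR's quasi-likelihood test with the library as a block, and p-values were adjusted by Benjamini-Hochberg over all genes tested. The test rests on 2 libraries a class. With the library as a block, its p-values measure how much class differences varied between these 2 libraries, pooled over 3 classes. This leaves 2 residual degrees of freedom, and the estimate of the spread is shared in part across genes. The library block is also the AAV group. Of 12295 genes, 550 differed at an adjusted p under 0.05 (4.47%), 269 higher (2.19%) and 281 lower (2.29%) in GABAergic cells, and 350 did without the library block. The genes of the rule are left out of these counts. The median log2 fold change over all genes was -0.01.

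Beyond the genes that chose the cells, a GABA uptake gene was higher and the vesicular carrier gene did not pass the test. Of 5 further GABA handling genes tested, 2 were higher and 0 lower (median log2 fold change 0.66). Slc6a11, which encodes the GABA transporter GAT3, stood at 135 and 136 CPM against 11.4 and 11.7 CPM (3.52 ± 0.30, adjusted p = 0.000656). Each library gave nearly the same summed level within a class, while single cells of the 2 classes overlapped in their UMIs. MG also carried it, at 188 and 247 CPM. Slc6a11 lies at chr6:114108200-114226913 on GRCm39, on the + strand.

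Slc32a1, the vesicular carrier that loads GABA and glycine alike, stood at 283 and 308 CPM against 200 and 171 CPM in glycinergic cells and did not pass the test (0.66 ± 0.23, adjusted p = 0.184). It was detected in 80 of 89 and 11 of 13 GABAergic cells. Abat, which encodes the enzyme that breaks GABA down, stood at 89.7 and 85.9 CPM against 135 and 141 CPM (-0.63 ± 0.23, adjusted p = 0.219). Slc6a13, another GABA transporter gene, was near absent at 1.61 and 0 CPM.

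**Figure D2:**
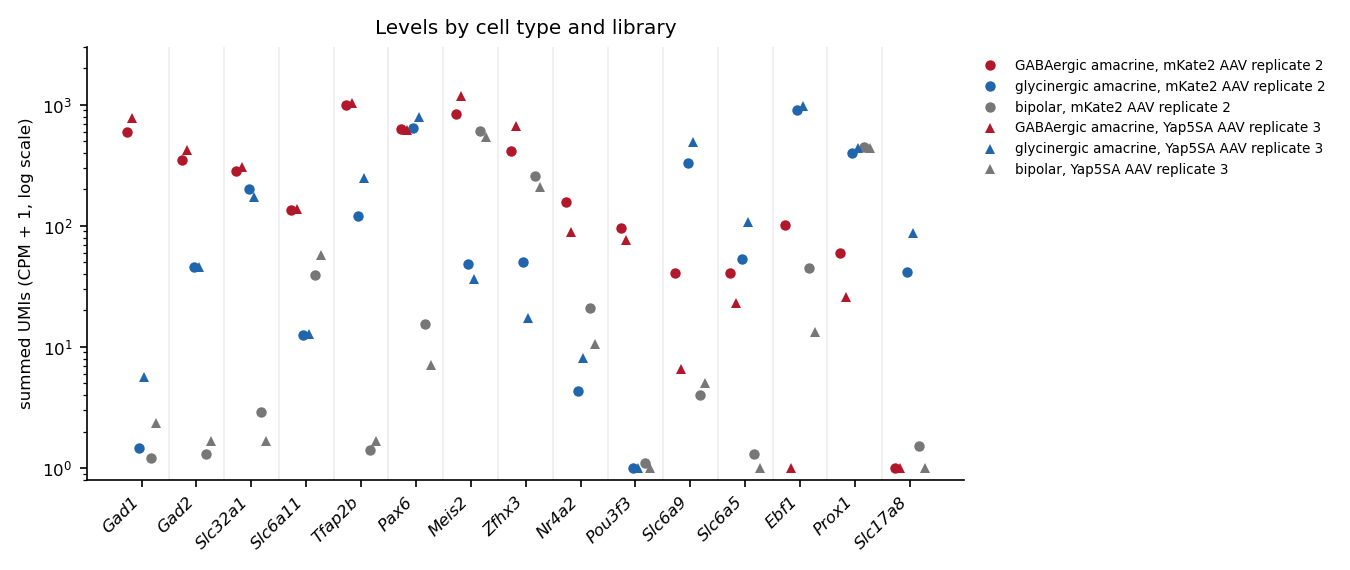
Levels of GABA, glycine, transcription factor and vesicular transporter genes in CPM + 1 on a log axis, for GABAergic amacrine, glycinergic amacrine and bipolar cells, with 1 point for each of the 2 libraries. Slc6a11 lies at 135 and 136 CPM in GABAergic cells and at or under 56.9 CPM in the other classes, while Meis2 is high in GABAergic and bipolar cells and low in glycinergic cells.

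Transcription factor genes divided the 2 amacrine classes in both directions. Of 23 genes of an amacrine factor list tested beside those of the rule, 5 were higher and 8 lower (median -0.54). Meis2, a homeobox gene of many GABAergic neurons, stood at 842 and 1175 CPM against 47.1 and 35.2 CPM in glycinergic cells (4.55 ± 0.30, adjusted p = 0.000327). Nr4a2, which encodes an orphan nuclear receptor, stood at 155 and 88.7 CPM against 3.33 and 7.04 CPM (5.08 ± 0.46, adjusted p = 0.000762), and Zfhx3, a zinc finger homeobox gene, at 413 and 665 CPM against 49.0 and 16.4 CPM (3.83 ± 0.42, adjusted p = 0.00183). In each library these levels in GABAergic cells exceeded those in glycinergic cells several-fold. Meis1, a relative of Meis2, was also higher (1.60 ± 0.30, adjusted p = 0.018).

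Pou3f3, a POU-domain factor gene, was detected in a minority of GABAergic cells (2 or more UMIs in 17 of 89 and 2 of 13) and in 0 glycinergic cells. It stood at 95.8 and 74.8 CPM in GABAergic cells and at 0 UMIs in the glycinergic cells of both libraries, at least 78.4-fold higher against a floor of 3 UMIs over the glycinergic class (adjusted p = 0.00077). Pantr1, a long noncoding RNA gene that lies head to head with it on chromosome 1 and shares 500 bases with it (Pantr1 chr1:42629754-42734584, - strand, and Pou3f3 chr1:42734085-42742336, + strand, on GRCm39), stood at 44.3 and 127 CPM against 0 (at least 46.2-fold). Tfap2d, a further AP-2 gene, was at least 21.9-fold higher at 22.5 and 49.9 CPM against 0. Under DESeq2, Pantr1 (adjusted p = 0.130) and Tfap2d (0.280) did not pass.

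The 8 listed genes that were lower were the transcription factor genes Ebf1, Ebf3, Prox1, Nfib, Nfix, Neurod4 and Tfap2c and Ppp1r17, which encodes a phosphatase inhibitor. Ebf1, an early B-cell factor gene, stood at 99.8 and 0 CPM against 913 and 976 CPM (-4.37 ± 0.71, adjusted p = 0.00922), and Ebf3 at 26.6 and 0 CPM against 551 and 711 CPM (-5.14 ± 0.61, adjusted p = 0.00233). Prox1, a homeobox gene, stood at 58.4 and 24.9 CPM against 396 and 436 CPM (-3.16 ± 0.30, adjusted p = 0.000955). The Ebf1 and Ebf3 signal came from few cells: 12 of 89 held at least 2 UMIs of either, and 9 of those 12 also held at least 2 UMIs of Slc6a9. Of the 13 cells of the Yap5SA AAV library 0 had an Ebf1 UMI, which allows a share of cells with a UMI of up to 23.1% and sets no limit on cells expressing it. Without the library block Ebf1 (adjusted p = 0.0509) and Nfib (0.0613) did not pass, and by DESeq2 4 of the 8 passed.

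The secreted C1q-like genes C1ql1 and C1ql2 marked the GABAergic side. C1ql1, whose product acts at synapses, stood at 403 and 618 CPM against 13.8 and 25.8 CPM in glycinergic cells (4.77 ± 0.27, adjusted p = 0.000118). C1ql2 stood at 174 and 280 CPM against 0 and 4.69 CPM, a pooled ratio of 237-fold on 2 glycinergic UMIs (counting interval 65.3 to 1962, adjusted p = 0.000656). C1ql1 had at least 2 UMIs in 51 of 89 and 6 of 13 cells, and C1ql2 in 38 and 7. Neither therefore marked every cell. Of the 16 general amacrine and neuronal genes tested, 3 were higher and 3 lower (median 0.39). Elavl4, a neuronal RNA-binding protein gene, was the third that was higher (1.35 ± 0.25, adjusted p = 0.018). Dab1 (-3.06 ± 0.54, adjusted p = 0.0148), Calb2 (-1.89 ± 0.29, adjusted p = 0.00745) and Rbfox3 (-1.40 ± 0.27, adjusted p = 0.0218, and 0.122 without the block) were lower.

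**Figure D3:**
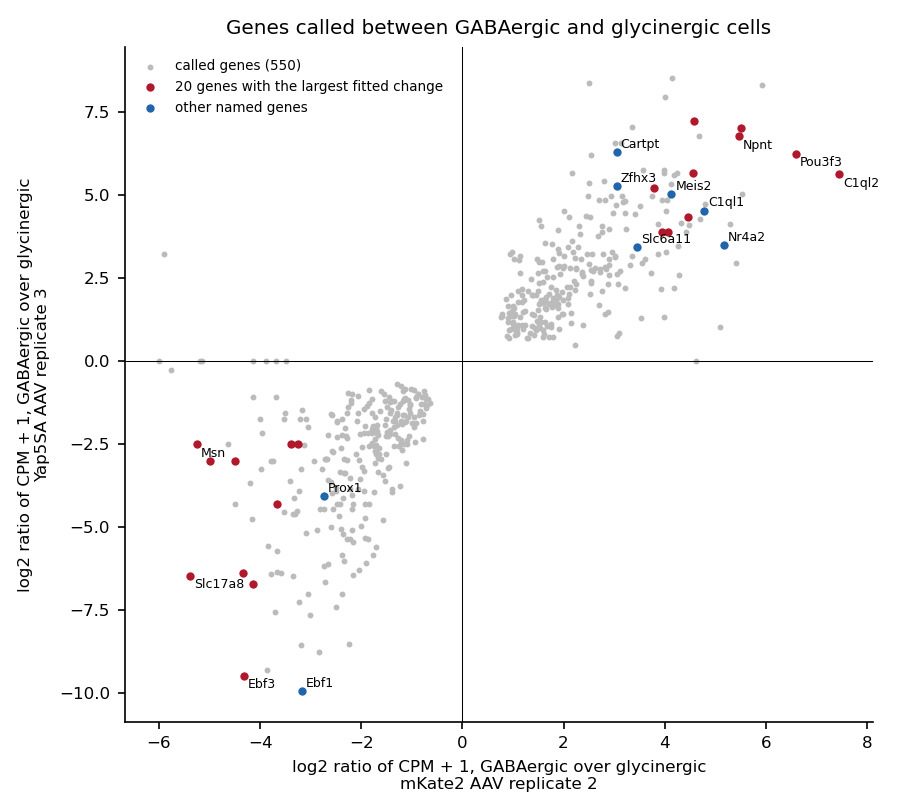
Each point is a gene that differed from glycinergic amacrine cells, placed by its log2 ratio of GABAergic over glycinergic CPM + 1 in the mKate2 AAV library (x axis) and the Yap5SA AAV library (y axis), with lines at 0, and named genes are coloured. The coloured genes lie on the same side of 0 in both libraries, which was a condition for those named by size of change. C1ql1 lies at 4.77 and 4.53.

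The other genes named by size of change were at or near 0 in one class. Npnt, an extracellular matrix gene, was at least 43.2-fold higher in GABAergic cells, Sstr2, a somatostatin receptor gene, at least 17.5-fold, Slc39a12, a zinc transporter gene, at least 13.3-fold, Abca13 at least 13.0-fold and Pcdh18, a protocadherin gene, at least 12.1-fold. Tdrd9 stood at 45.5 and 150 CPM against 0.952 and 0 CPM. In the lower direction, Slc17a8, which encodes the vesicular glutamate transporter VGLUT3 and marks a glycinergic amacrine subtype, was at 0 in GABAergic cells and 41.0 and 86.8 CPM in glycinergic cells (at least 46.2-fold lower, adjusted p = 0.00364, and 0.172 under DESeq2). Eya4 was at least 18.0-fold lower, Notch1 at least 8.26-fold and Slc40a1, the iron exporter gene, at least 7.51-fold. Msn stood at 0.805 and 0 CPM against 67.6 and 4.69 CPM, Car3 at 1.21 and 0 against 43.8 and 82.1 CPM, Smim3 at 0.402 and 0 against 43.8 and 7.04 CPM, Flvcr2 at 0.805 and 0 against 21.9 and 18.8 CPM, and Gpr149 at 4.02 and 0 against 87.6 and 103 CPM. For Msn and Smim3 most of the glycinergic signal was in the mKate2 AAV library, while Car3, Flvcr2 and Gpr149 were high in both. The comparison of Notch1 lost its call under DESeq2 (adjusted p = 0.0957), and without the library block so did Notch1 (0.0695), Msn (0.0796) and Slc39a12 (0.0515).

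Receptor genes differed between the classes for a few subunits. Of 16 GABA receptor genes, 2 were higher and 1 lower than in glycinergic cells (median 0.48). Gabrb1 stood at 452 and 416 CPM against 95.2 and 93.9 CPM (2.20 ± 0.26, adjusted p = 0.00219) and Gabra2 at 377 and 374 CPM against 111 and 171 CPM (1.50 ± 0.26, adjusted p = 0.0135). Gabrg3 stood at 325 and 202 CPM against 1340.0 and 1595 CPM (-2.48 ± 0.27, adjusted p = 0.00164). These are all subunit genes of the ionotropic GABA-A receptor, and without the library block Gabra2 did not pass (adjusted p = 0.0549). Of 6 glycine genes tested, the glycine receptor genes among them, edgeR called 0 (median -0.23), against 5 at an unadjusted p under 0.05 and 1 by DESeq2. Slc6a5, which encodes the glycine transporter of glycinergic terminals, stood at 39.4 and 22.2 CPM against 51.9 and 106 CPM (adjusted p = 0.311).

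Of 23 glutamate receptor genes, 4 were higher and 3 lower (median 0.37). Grm5, a metabotropic receptor gene, stood at 490.2 and 382 CPM against 114 and 115 CPM (1.95 ± 0.23, adjusted p = 0.00245), and Grm7, another, at 1021 and 2372 CPM against 275 and 230 CPM (2.63 ± 0.34, adjusted p = 0.00364). Grm3, also metabotropic, was higher from a low level, at 24.1 and 66.5 CPM against 2.38 and 7.04 CPM (3.30 ± 0.57, adjusted p = 0.0128). The 3 that were lower belong to the ionotropic receptor family: Grik2 (-1.23 ± 0.23), Grik3 (-2.87 ± 0.42) and Grid1 (-1.20 ± 0.26). Without the library block Grm3 (adjusted p = 0.0582), Grik2 (0.103) and Grid1 (0.0612) did not pass.

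Among 16 channel genes, 3 were higher and 1 lower (median 0.23). Kcnc2, a fast potassium channel gene, stood at 548 and 870 CPM against 158 and 150 CPM (2.13 ± 0.24, adjusted p = 0.00199) and Kcnd2 at 419 and 535 CPM against 51.0 and 4.69 CPM (3.70 ± 0.55, adjusted p = 0.00622). Kcnip4, an auxiliary subunit gene of the Kcnd channels, was lower (-1.55 ± 0.33, adjusted p = 0.0317, and 0.125 without the block). Among 16 lamination and adhesion genes, Megf11 (2.98 ± 0.55) and Cntn1 (1.26 ± 0.21) were higher and Cntn6 (-2.22 ± 0.35) and Sdk2 (-1.54 ± 0.30) lower (median -0.46). The part of single cells was large for Megf11: its level in the Yap5SA AAV library came to 98.8% from a cell with 85 UMIs. In the mKate2 AAV library 2 cells held 63 and 55 UMIs, and the next held 16. The cells with 85, 63 and 55 UMIs were those with the cholinergic genes of starburst cells, given below.

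A neuropeptide gene, Cartpt, was higher than in glycinergic cells and was carried by few cells at high counts. Of 12 such genes, 5 could be tested against glycinergic cells and 1 was higher (median -0.08). Cartpt, the gene of the CART peptides (chr13:100034990-100047006, - strand, on GRCm39), stood at 724 and 2812 CPM against 86.7 and 35.2 CPM (4.47 ± 0.65, adjusted p = 0.00579). At least 2 UMIs were present in 13 of 89 and 2 of 13 cells, with up to 451 and 675 UMIs in a single cell and a median of 0. A single cell gave 66.5% of the Cartpt UMIs of the Yap5SA AAV library. Glycinergic cells carried Cartpt too, with up to 36 UMIs in a cell of the mKate2 AAV library and up to 14 in the Yap5SA AAV library. The share of glycinergic cells with at least 2 UMIs was larger than that of GABAergic cells in the mKate2 AAV library and smaller in the Yap5SA AAV library. The higher summed level thus rests on few cells with high counts. Any of the 12 peptide genes reached 2 UMIs in 40 of 89 cells (44.9%, 34.4 to 55.9) and 3 of 13 (23.1%, 5.04 to 53.8), and 2 or more of them did in 7 and 0 cells. A single UMI of any was present in 60.7% and 53.8% of the cells and in 63.2% and 39.1% of glycinergic cells.

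The other peptides were rarer. Tac1, the substance P gene, was present at 2 or more UMIs in 9 of 89 and 1 of 13 cells, Vip, the vasoactive intestinal peptide gene, in 7 and 0, and Pdyn, the prodynorphin gene, in 9 and 0. Npy and Penk were each present in 3 of the 89 cells and Crh in 1. Sst, Gal and Nts had no UMI in any of the 102 cells. With 13 cells, a peptide gene without a UMI there was not detectable at this depth and cannot be called absent.

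Combinations of factors and peptides recurred among cells of the mKate2 AAV library, taking 2 UMIs as present. All 13 Cartpt cells and all 7 Vip cells carried Nr4a2, which was present in 32 of the 89. All 13 Cartpt, 9 Tac1 and 7 Vip cells carried C1ql1. All 9 Tac1 cells carried Meis2, against 6 of 13 Cartpt cells and 1 of 7 Vip cells, and 51 of the 89 cells overall. Tac1 and Vip met in 0 cells, while Cartpt and Vip met in 3.

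Pou3f3 and Lhx9 marked further sets. Of 17 Pou3f3 cells, 15 carried C1ql2, 8 carried Cartpt and 1 carried Zfhx3. Of 15 Lhx9 cells, 13 carried Meis2, 6 carried Tac1 and 1 carried Pou3f3. Of 9 Pdyn cells, 6 carried Calb2, the calretinin gene. In the Yap5SA AAV library both Cartpt cells carried Nr4a2, Pou3f3, C1ql1 and C1ql2, and all 9 Meis2 cells carried Zfhx3. The same Cartpt combination was therefore seen in both libraries, in few cells. These are counts in cells of 1 library each and carry no test, and deeper cells reach 2 UMIs more often. Thinned to 1000 UMIs a cell, and at the laxer limit of at least 1 UMI, Meis2 was detected in 23.6% of the 89 cells. At that limit C1ql1 was detected in 12.4%, Cartpt in 7.87% and Nr4a2 in 2.25%.

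**Figure D4:**
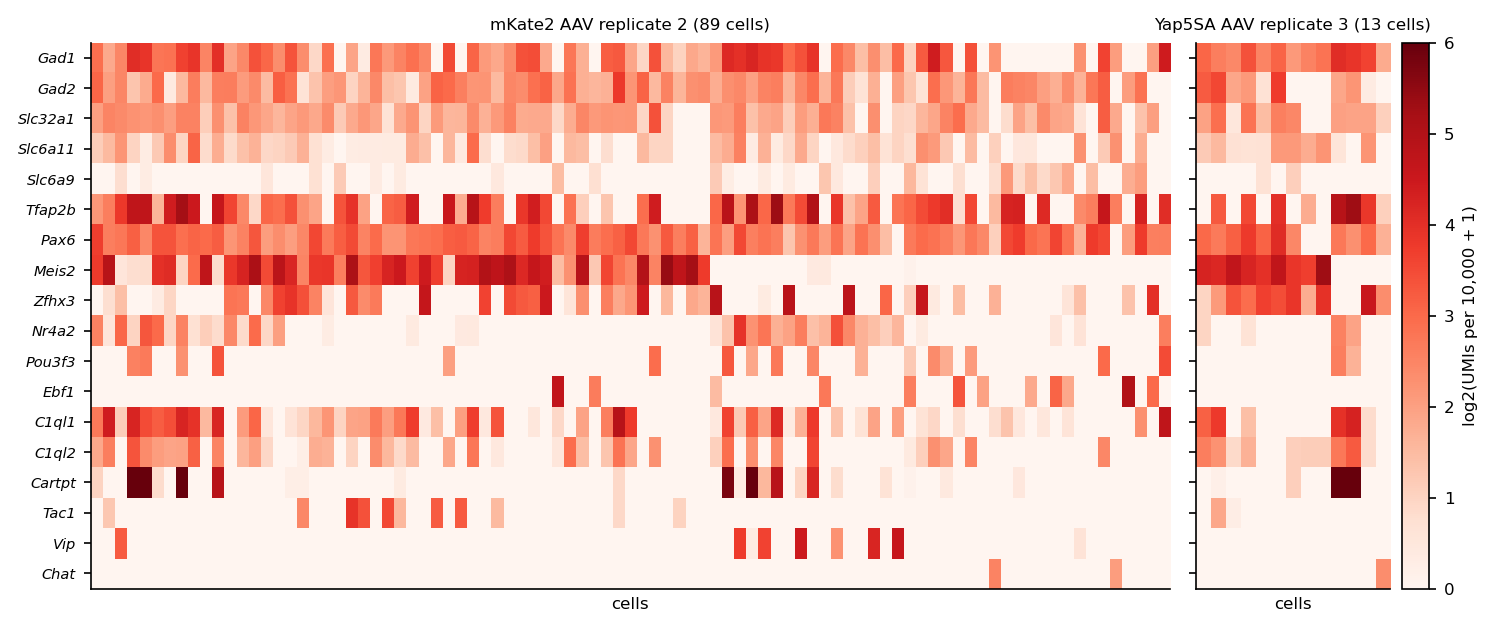
Each column is 1 of the 102 GABAergic amacrine cells and each row a gene, shaded by log2 of its UMIs, scaled to each cell's total, plus 1 and capped at 6, with the 2 libraries side by side and cells ordered by Meis2, then Nr4a2, then total UMIs. Meis2 was present at 2 or more UMIs in 51 of 89 and 9 of 13 cells, and the cells of the larger library with 2 or more UMIs of Cartpt or Vip fall within its 32 Nr4a2 cells.

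Cells with the cholinergic genes of starburst amacrine cells were found in both libraries. The genes are Chat, which makes acetylcholine, Slc18a3, which loads it into vesicles, and Slc5a7, which takes up choline. At least 2 of these 3 genes had a UMI in 2 of 89 and 1 of 13 cells. In the mKate2 AAV library one of these cells held 13 UMIs of Chat, 11 of Slc5a7 and 63 of Megf11, and the cell of the Yap5SA AAV library held 15 of Chat, 6 of Slc5a7, 3 of Slc18a3 and 85 of Megf11. Megf11 belongs to a family of surface receptor genes that act in the spacing of retinal neurons. Chat was at 0 UMIs in bipolar cells and MG of both libraries, and glycinergic cells held 0 and 2 UMIs. Of 3 genes of dopaminergic cells, Th, the tyrosine hydroxylase gene, had 2 UMIs in 1 of 102 cells and Slc6a3, the dopamine transporter gene, had 0 in all. The third, Slc18a2, which encodes a vesicular carrier of monoamines, had 60 UMIs in 11 of the 89 cells and 2 UMIs in 1 of the 13, against 3 and 0 UMIs in glycinergic cells, and was not among the genes tested against them. Nos1, the nitric oxide synthase gene, had 2 or more UMIs in 5 of the 89 cells and 0 of the 13. Of 4 testable genes of such second transmitters, 0 were higher and 1 lower than in glycinergic cells (median 1.97, or 1.50 with genes at 0 set to their bounds).

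The comparison with bipolar cells, the excitatory interneurons of the same sort, gave 2219 differing genes of 12288 (18.1%), 1147 higher (9.33%) and 1072 lower (8.72%). All 7 genes by which bipolar cells were chosen are left out. Slc32a1 set the classes far apart, at 1.89 and 0.678 CPM in bipolar cells (7.39 ± 0.33, adjusted p = 5.94e-06). Slc6a11 differed less, at 38.1 and 56.9 CPM in bipolar cells (1.52 ± 0.24, adjusted p = 0.00203). Meis2, which set GABAergic cells apart from glycinergic cells, stood at 607 and 537 CPM in bipolar cells and did not pass the test (0.76 ± 0.24, adjusted p = 0.0633).

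By list, 4 of 5 GABA handling genes were higher than in bipolar cells, as were 7 of 16 GABA receptor genes (5 lower), 4 of 6 glycine genes (1 lower), 15 of 23 glutamate receptor genes (5 lower), 12 of 16 general amacrine genes, 4 of 5 peptide genes (1 lower) and 9 of 16 channel genes (3 lower). Their median log2 fold changes were 2.79, 0.61, 2.78, 2.27, 3.56, 5.52 and 1.17, against -0.03 over all genes. Among receptors, Gabra2 stood at 1.26 and 4.07 CPM in bipolar cells (7.56 ± 0.37). Gabrr1 and Gabrr2, which encode the GABA-C subunits typical of bipolar cells, were lower in GABAergic cells, at 4.02 and 16.6 CPM and 6.44 and 11.1 CPM against 139 and 141 CPM and 269 and 276 CPM. Grm5, higher than in glycinergic cells, was lower than in bipolar cells, where it stood at 1059 and 1323 CPM.

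The genes furthest above bipolar cells were near 0 there. Glra3, a glycine receptor subunit gene, stood at 293 and 163 CPM against 0.314 and 0 CPM, and C1ql1 had 2 and C1ql2 1 UMI in all bipolar cells. Hpgd stood at 140.0 and 66.5 CPM and Cbln2, a synaptic organiser gene, at 104 and 94.2 CPM, each with 1 bipolar UMI, as had Pou3f3. Steap3 was at least 216-fold higher, Arhgef15 at least 136-fold and Rasgrp1 at least 80.0-fold.

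Genes furthest below bipolar cells had no UMI in GABAergic cells. Bhlhe23 (at least 45.4-fold lower), Sebox (36.9), Slit3 (35.1), Ddit4l (30.0), Slc40a1 (28.4), Cabp4 (27.8) and Ccdc175 were detected in the bipolar cells of both libraries at 18.3 to 51.5 CPM. Slpi, Opn1sw and Pde6h varied far more between libraries: Slpi stood at 239 and 0.678 CPM in bipolar cells, the cone opsin gene Opn1sw at 29.3 and 475 CPM, and the cone gene Pde6h at 44.3 and 222 CPM. By DESeq2, Slpi (adjusted p = 0.669), Bhlhe23 (0.143) and Slit3 (0.191) did not pass, nor did Slpi without the library block (0.0779). All 10 rod genes and all 6 cone genes were lower in GABAergic than in bipolar cells, and against glycinergic cells edgeR and DESeq2 each called 0 of either list, with 0 rod and 1 cone gene at an unadjusted p under 0.05. Rod genes summed to 2672 and 1147 CPM in bipolar cells, and the part of photoreceptor RNA in these calls was not tested.

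Several genes of the Hippo pathway and of the glial or neurogenic program were low, but not all: 6 of 18 Hippo pathway genes had at least 50 UMIs over both libraries. Yap1 stood at 8.85 and 5.54 CPM in GABAergic cells against 37.4 and 34.7 CPM in MG, but the AAV transgene has no entry of its own among the features. The YAP target genes Ccn1 (6.84 and 2.77 CPM) and Ccn2 (3.22 and 8.31 CPM) were low. The floor of 3 UMIs is 1.21 and 8.31 CPM in the 2 libraries, so the values with Yap5SA AAV were at or under it. Of 12 Hippo pathway genes, 0 were higher and 1, Wwtr1, was lower than in glycinergic cells (-3.49 ± 0.78, adjusted p = 0.0398, 0.107 without the block and 0.0820 by DESeq2), where it stood at 46.7 and 4.69 CPM. Of 8 progenitor and neurogenic genes, 0 were higher and 1, Notch1, was lower. Sox9, an MG gene, stood at 14.1 and 0 CPM against 711 and 740 CPM in MG. Atoh7, Olig2, Ptf1a and Foxn4 had no UMI in any of the 102 cells. Mki67, the proliferation marker gene, stood at 0.805 and 0 CPM. Of 2 cell cycle genes tested edgeR called 0, with 0 at an unadjusted p under 0.05, and DESeq2, which gave an adjusted p for 1, called 0, and of 20 stress genes 1, Hspb1, was lower than in glycinergic cells (-1.77 ± 0.36, adjusted p = 0.0272, and 0.0605 by DESeq2). The list medians were -0.25, -0.37, 0.36 and -0.23 in this order.

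The question of whether the cells differed with Yap5SA AAV could be described only, since each AAV had 1 library with these cells. There is no replicate, and no test was made. Of 7959 genes with at least 50 UMIs over both libraries, 86.2% lay within 2-fold, 260 were past 2-fold higher with Yap5SA AAV (3.27%) and 835 past 2-fold lower (10.5%), with a median log2 ratio of -0.13. The GABAergic cells held 2484782 UMIs in the mKate2 AAV library and 360928 in the Yap5SA AAV library, so the 50-UMI limit was met mostly through the former. The counting interval lay wholly past 2-fold for 79 of the higher and 117 of the lower genes. Of 6 GABA handling genes 0 were past 2-fold (median 0.09). Single cells weighed heavily among 13: in 97 of the 260 genes that were higher, 1 cell gave over 50% of the UMIs. Without the cell with most UMIs of each gene in each library 92 were higher and 1698 lower. Leaving out 1 cell takes a larger part of 13 cells than of 89, which by itself tends to lower the ratios.

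Among the 10 genes furthest above, 5 cells gave the most UMIs. Without their top cells, Slc4a4 (2.54), Tmem164 (2.06), Maf (1.95), Ankfn1 (1.76) and Itpr2 (1.19) stayed past 2-fold higher. Myo5b then had no UMI left in the Yap5SA AAV library, so its ratio of 1.05 came from a floor of 3 UMIs. Sox2ot stood at 9.26 CPM with mKate2 AAV and 180.1 CPM with Yap5SA AAV, of which 98.5% came from 1 cell, the one with the cholinergic genes. The same cell gave the most UMIs of Myo5b (38 of 38) and Clstn2 (102 of 118). Maf, the gene of a bZIP transcription factor, stood at 51.1 and 673 CPM, with 205 of 243 UMIs in the deepest cell, which also gave 24 of 25 for Rtl4. Calb1, the calbindin gene, stood at 11.7 and 72.0 CPM, with 22 of 26 UMIs in the cell with the horizontal cell genes. The second deepest cell gave the most UMIs of Itpr2 (38 of 45), Slc4a4 (52 of 78) and Tmem164 (20 of 46), and the least deep cell of Ankfn1 (21 of 31). Tmem164, at 22.9 and 127 CPM, was the most widely detected, in 9 of 13 cells and 28 of 89. A different mix of subtypes and a different level per cell cannot be told apart in these ratios.

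Genes furthest below were detected in 7 to 40 of the 89 cells. Hs6st3, a heparan sulfate sulfotransferase gene, had 1904 UMIs (766 CPM) with mKate2 AAV and 2 (5.54 CPM) with Yap5SA AAV, a log2 ratio of -7.11 (counting interval -10.16 to -5.26). Nckap5 had 742 UMIs in 34 cells and 0, 35.9-fold lower with a floor of 3 UMIs (counting interval of the log2 ratio up to -4.87). Shisa9 had 528 and 1 UMIs, Cacna2d3 449 and 1, Nell1 387 and 1, Gpc5 255 and 1, Prex2 229 and 1, Opcml 681 and 4, Nfib 282 and 2 and Elavl2 132 and 1. In glycinergic cells of the same libraries Hs6st3 stood at 2821 and 2907 CPM and Nckap5 at 996 and 1227 CPM, and of the 10 genes Shisa9 was past 2-fold lower there (182 and 77.4 CPM, log2 ratio -1.24). Hs6st3 was lower with Yap5SA AAV in bipolar cells (-2.21), MG (-3.11) and microglia (-4.43) too, but from low levels. It stood at 3.14 and 0.678 CPM in bipolar cells, 24.0 and 2.78 CPM in MG and 40.3 and 1.87 CPM in microglia. These ratios therefore rest on few UMIs with Yap5SA AAV.

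Over all genes 10.5% were past 2-fold lower with Yap5SA AAV and 3.27% higher. By list, 12 of 24 genes of the amacrine factor list were past 2-fold lower and 1, Maf, higher (median -0.93). The 12 were Barhl2, Prox1, Neurod1, Neurod2, Neurod4, Eomes, Ebf1, Ebf3, Satb1, Nfib, Nfix and Lhx9. Cells with at least 2 UMIs of Ebf1 or Ebf3 and at least 2 of Slc6a9 were 9 of the 89 and 0 of the 13, and their part in these ratios was not tested. Of 17 stress genes 8 were lower, among them Fos, Jun and Egr1 (median -0.78), and summed stress genes stood at 5520 CPM with mKate2 AAV and 3003 CPM with Yap5SA AAV. Of 5 microglia genes 4 were lower (median -2.11), with the 3 microglia-rich cells all in the mKate2 AAV library. Of 12 GABA receptor genes 3 were lower, of 4 peptide genes Cartpt was higher and Npy and Vip lower, and of 6 Hippo pathway genes 0 were past 2-fold (median -0.20). The 2 libraries also differed in share of UMIs from ribosomal protein genes, with medians of 2.13% and 1.37% per cell, and the part of these differences in the ratios was not tested.

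**Figure D5:**
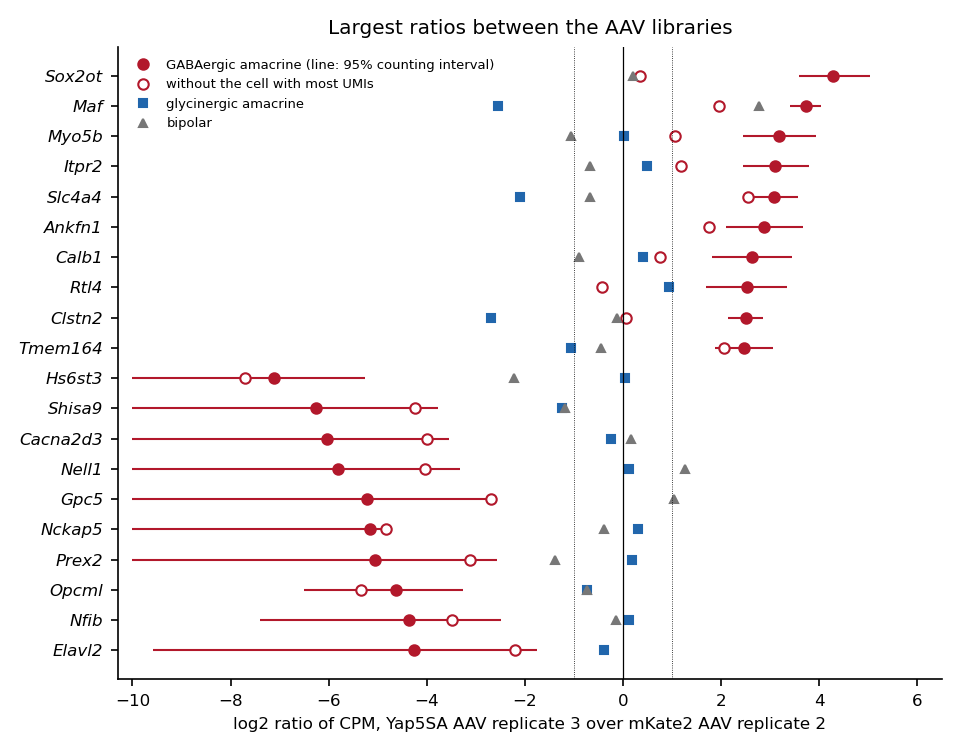
Log2 ratio of CPM with Yap5SA AAV over mKate2 AAV in GABAergic amacrine cells for the 20 genes furthest from 0, with exact counting intervals drawn down to -10 the ratio without the cell that held most UMIs of the gene as an open mark, and the ratios in glycinergic and bipolar cells where both libraries together hold at least 20 UMIs. Sox2ot moves from 4.28 to 0.34 without its top cell, and Hs6st3 stays at -7.70. Where no UMI was left without the top cell, as for Myo5b, the open mark uses a floor of 3 UMIs.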

How the data were processed

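Single-cell RNA-seq libraries were made from sorted tdTomato+ retinal cells with the 10x 3′ chemistry. The authors deposited UMI counts per gene and barcode, made with Cell Ranger on GRCm39 (version 8.0.0 in the submitters' notes, 8.0.0 or 9.0.1 in the file headers) and not normalized. The 5 libraries hold 12319028 to 50938304 UMIs; genes with few UMIs are imprecise, and intervals and floors of 3 UMIs cover counting error only.

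Cells were chosen by the rule given in the report, and glycinergic amacrine, bipolar, rod, microglial and MG cells by like rules. The members and gene lists were chosen with earlier results of these data known. No doublet caller was run. UMIs were summed per library and class (at least 10 cells) and scaled to CPM. The 3 neuronal classes, GABAergic, glycinergic and bipolar, were fitted together in edgeR 4.0.16 (R 4.3.3, TMM scaling, filterByExpr, glmQLFit and glmQLFTest, class plus library block, 2 residual degrees of freedom), with Benjamini-Hochberg adjustment and a threshold of 0.05; the classes share cells of the same 2 captures, which is the pairing. DESeq2 1.42.0, RLE scaling, no filter, no block and changed cell rules were alternatives. Scripts were tested on simulated data. Shares have Clopper-Pearson 95% intervals. AAV ratios within GABAergic cells used genes with at least 50 UMIs, and a gene at 0 took a floor of 3 UMIs. Named genes were the 10 called genes with the largest change in each direction that kept their sign in both libraries, plus list members; for AAV ratios, the 10 furthest from 0 in each direction. Gene positions are from GENCODE vM39 and promoters from RefSeq. Yap5SA AAV replicate 2 was left out as a second count of replicate 1's cells. Some genes are not reported here.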

Additional observations from a re-analysis of the deposited data

Results flagged for a closer look

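Among the genes furthest from equality between the AAV libraries, 4 pointed in opposite directions in the 2 amacrine classes. The log2 ratio of Yap5SA AAV over mKate2 AAV for Maf was 3.72 in GABAergic and -2.56 in glycinergic amacrine cells, where Yap5SA AAV had 0 UMIs and took the floor of 3. For Slc4a4 the ratios were 3.07 and -2.09, for Clstn2 2.50 and -2.68, and for Tmem164 2.47 and -1.06. Without the cell with most UMIs of the gene in each library, the GABAergic ratios were 1.95, 2.54, 0.06 and 2.06 in this order, so that of Clstn2 rests on 1 cell. Each side is 1 library, and the difference between the classes was not tested. In the GABAergic cells with Yap5SA AAV, Maf was present in 3 of 13 cells, Slc4a4 in 3, Clstn2 in 3 and Tmem164 in 9.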

How the results depend on the processing

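The share difference between AAV groups kept its sign under every change of the cell rule (92 to 111 members) and ranged from -1.30 to 0.281 percentage points when each capture was left out in turn, turning to 0.281 with 13 members left of 102 when mKate2 AAV replicate 2 was left out (members 13 to 102). Calls against glycinergic cells numbered 550, and 1189 with no filter on low counts and 350 without the replicate block, 348 of them shared with the 550. The block changed the calls named in the report and moved calls against bipolar cells only to 2069 from 2219. Other settings gave 483 to 623 calls against glycinergic and 1656 to 2921 against bipolar cells, DESeq2 giving the fewest in each. Of the checks on the 40 genes named by size, 165 kept direction and call and 8 lost the call against glycinergic cells, and 156 and 4 did against bipolar cells. Leaving out either library leaves no residual degrees of freedom and so no call. The ratios of these genes kept their direction, but the genes were chosen for that, so it is no check. For AAV ratios, 260 genes were higher and 835 lower, and with at least 100 UMIs 147 and 389 were. Without the cell with most UMIs of the gene in each library, an alternative chosen after seeing the data, 92 and 1698 were. That alternative takes 1 of 13 cells with Yap5SA AAV and 1 of 89 with mKate2 AAV. Rtl4 then turned from 2.52 to -0.43. Thinned to 1000 UMIs, shares with a UMI in the mKate2 AAV library were 23.6% for Meis2, 12.4% for C1ql1, 7.87% for Cartpt (24.7% unthinned), 8.99% for Zfhx3 (15.4% in the Yap5SA AAV library), 4.49% for Pou3f3, 1.12% for Lhx9, 2.25% for Tac1 and 0 for Pdyn. No paired analysis was possible for the AAV comparison because each AAV has 1 library with these cells.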

Other observations

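H2-K1, B2m, H2-D1 and Irf1 were chosen after their values were seen, and each value rests on 1 library a side. H2-K1, a major histocompatibility class I gene, stood at 72.4 CPM in GABAergic amacrine cells with mKate2 AAV and 5.54 CPM with Yap5SA AAV, a log2 ratio of -3.71, and its ratio was -2.85 in glycinergic and -1.95 in bipolar cells. B2m, the light chain gene of class I molecules, stood at 91.8 and 16.6 CPM (-2.46), with -4.74 in glycinergic and -1.47 in bipolar cells. H2-D1 stood at 113 and 33.2 CPM (-1.77), with -1.69 and -1.40. The 3 classes come from the same 2 libraries. Irf1, an interferon regulatory factor gene, had 94 UMIs and 0, 4.55-fold lower with a floor of 3 UMIs (counting interval of the log2 ratio up to -1.86). Microglia, which carry H2-K1 at 1334 and 1221 CPM, had a log2 ratio of -0.13, while the H2-K1 ratio was -1.33 in MG and -2.58 in rods, and that of H2-D1 was -1.50 and -2.76. The part of RNA from other cells was not tested.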
